A study of Homo sapiens with 10 samples.

Results

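Retained-intron transcripts are transcript models that GENCODE annotates with the biotype retained_intron, because they hold sequence that other transcripts of the same gene splice out. The data are transcript levels in NB4, a human acute promyelocytic leukaemia line that carries the PML-RARA fusion. NB4 had 2 libraries treated with a control for 48 hours and 2 libraries treated for 48 hours with JOA at 1 µM, an agent that the labels name only by this code. What the control contained is not given in the sources used here, and the source label of the treated libraries reads I13 where the title and agent labels read JOA. NB4 is 1 cell line. No label says whether the replicates were grown apart, and the p-values therefore cover the spread of these 4 libraries alone, which may be technical. The NB4 data hold 121005 transcripts. Of them, 113595 (93.9%) have an entry in GENCODE release 29, and 22163 of these are retained-intron transcripts. The 10569 of them with a mean of 1 TPM (a length-normalised abundance that sums to the same total in each library) or more over the 4 libraries are described here, and they lie in 4490 genes. The mean over control and JOA libraries together chose these transcripts, so their level is given as a description. A transcript high in 1 treatment can reach the minimum through that treatment alone: 599 had a control mean below 1 TPM and a JOA mean at or above it, and 455 the reverse.

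Splicing removes introns from a pre-mRNA in the nucleus, and the spliceosome recognises each intron by a 5′ splice site that usually begins with GT and a 3′ splice site that usually ends with AG. A transcript that keeps an intron is often held in the nucleus, or is degraded after export by nonsense-mediated decay when the intron brings in a premature stop codon. Retained introns are known to be common in granulocytic cells and in transcripts of splicing factors themselves, where SR proteins, hnRNP proteins and the CLK kinases that phosphorylate SR proteins influence which introns are removed.

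Sequences show what such a transcript carries. The introns below lie whole inside an exon of the named retained-intron transcript and between 2 coding exons of a coding transcript of the same gene. They were read 5′ to 3′ from the GENCODE transcript sequences (GRCh38), with the first and last 2 bases, GT and AG, in capitals. ARL6IP4 and STARD7 were taken by rule from transcripts with the largest differences between groups, and the others, chosen after their values were seen, show hosts of high level.
EEF1A1 intron 4 of 7, in EEF1A1-206, chr6:73518849-73518931, minus strand: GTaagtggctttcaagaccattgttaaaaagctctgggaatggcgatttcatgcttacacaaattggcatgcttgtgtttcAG
CALR intron 4 of 8, in CALR-207, chr19:12940148-12940242, plus strand: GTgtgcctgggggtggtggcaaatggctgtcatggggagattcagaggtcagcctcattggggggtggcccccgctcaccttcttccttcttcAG
NCL intron 3 of 6, in NCL-208, chr2:231457125-231457285, minus strand: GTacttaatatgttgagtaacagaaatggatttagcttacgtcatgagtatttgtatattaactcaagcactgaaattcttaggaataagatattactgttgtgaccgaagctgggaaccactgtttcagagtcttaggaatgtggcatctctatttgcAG
ARL6IP4 intron 5 of 5, in ARL6IP4-213, chr12:122982539-122982619, plus strand: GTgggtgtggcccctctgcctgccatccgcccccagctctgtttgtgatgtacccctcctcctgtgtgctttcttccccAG
STARD7 intron 4 of 7, in STARD7-206, chr2:96193161-96193241, minus strand: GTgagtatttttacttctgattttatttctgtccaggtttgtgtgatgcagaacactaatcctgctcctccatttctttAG

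For longer introns only the splice sites are shown: at the 5′ end 3 exon bases and 6 intron bases, and at the 3′ end 20 intron bases and 3 exon bases, with GT and AG in capitals. THYN1 was taken by the same rule, and SRSF5 and CLK1 are splicing regulators whose retained-intron transcripts differed between libraries of 1 treatment.
THYN1 intron 1 of 6, chr11:134252917-134253226, minus strand, 5′ site: aagGTaaca
THYN1 intron 1 of 6, 3′ site: tgtatctccgttgattccAGaat
SRSF5 intron 5 of 7, chr14:69769252-69770466, plus strand, 5′ site: cagGTttgt
SRSF5 intron 5 of 7, 3′ site: cacaattatcttgtgttaAGgat
CLK1 intron 4 of 12, chr2:200859747-200860124, minus strand, 5′ site: gatGTatag
CLK1 intron 4 of 12, 3′ site: gatttatttctctcttttAGatg

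Retained-intron transcripts were mostly low. Their median level was 3.15 TPM, 1562 reached 10 TPM and 44 reached 100 TPM, and the 100 highest held 26.2% of their summed TPM. Just inside the minimum lay transcripts of PITPNB and ATPAF2, both at 1.00 TPM, and just outside it lay VPS45-210 and TCTN3-205, which are also 1.00 TPM after rounding. A single retained-intron transcript held a median of 6.20% of the summed TPM of its gene. Such a share was 10% or more for 3443 transcripts and 50% or more for 160. Summed over all retained-intron transcripts of a host gene, the median share was 18.2%, and 467 hosts reached 50%. Of the 10569 transcripts, 399 (3.78%) were listed at exactly 0 in at least 1 library, against 457 of 12829 coding transcripts of the same genes (3.56%). A listed 0 can be a failed estimate, since the software assigns reads among overlapping transcript models.

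The intron was held whole in 3342 of the 10569 transcripts (31.6%), counted as an intron of a coding transcript at 1 TPM or more that lies inside 1 exon. Another 3102 (29.4%) began inside an intron of the most abundant coding transcript of the gene, 2497 (23.6%) ended inside one and 839 (7.94%) did both. Of the rest, 487 did neither, and 302 lay in genes with no spliced coding transcript at 1 TPM. Many of these models are therefore short pieces that start or stop within an intron, and their median length was 756 bases.

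The introns held whole were short beside the other introns of their hosts. There were 4065 of them, with a median length of 229 bases, and 75.1% were shorter than 500 bases. The other 58275 introns of the hosts' coding transcripts had a median length of 1321 bases, with 27.3% shorter than 500. The median GC content of the introns held whole was 57.6%, and it was 54.0% in 1772 introns held whole only by retained-intron transcripts below 1 TPM. The GC content of the other 58275 introns was not measured. The dinucleotide GT stood at the start of 98.6% of the introns held whole, GC at the start of 0.886%, and AG at the end of 99.5%. The 6-base starts GTAAGT and GTGAGT, searched on the transcript strand, were found in 22.8%, and in 25.5% of the 1772 introns held only by transcripts below 1 TPM. The first intron of the coding transcript made up 7.23% and the last 9.35%. No test was run on these features.

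**Figure D1:**
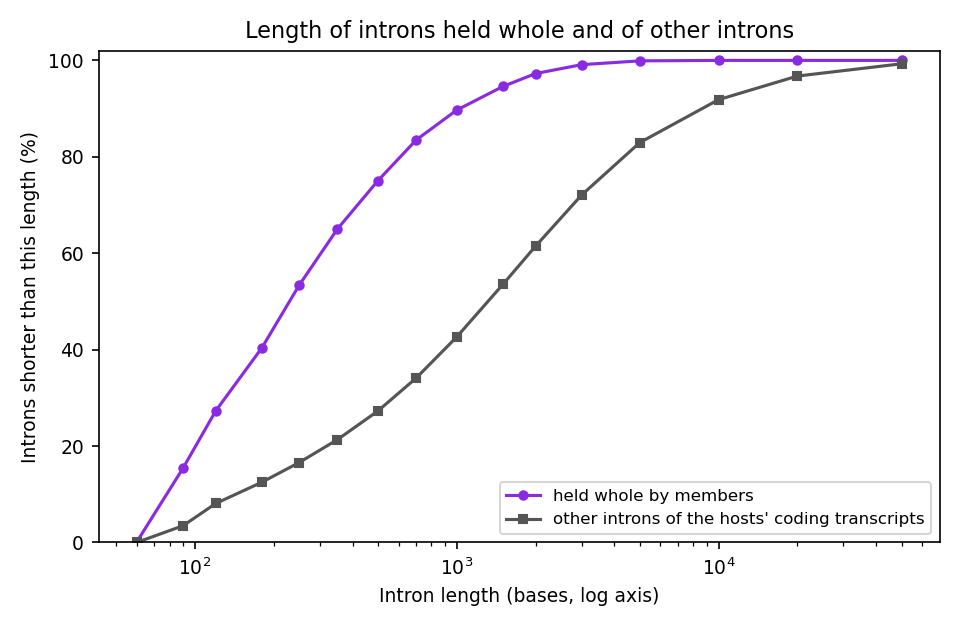
Cumulative percentage of introns (vertical axis) shorter than a given length in bases (horizontal axis, log scale), for the 4065 introns held whole by retained-intron transcripts (circles) and the 58275 other introns of their hosts' coding transcripts (squares). At 500 bases the first curve is at 75.1% and the second at 27.3%.

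A small group of the introns held whole began with AT and ended with AC, the ends typical of many introns removed by the minor spliceosome. There were 11 such introns (0.271% of 4065), in 11 genes, and none among the 1772 introns held only by transcripts below 1 TPM. They were looked for after the other values had been seen. E2F4, a repressor of cell-cycle genes, and ALG3, a mannosyltransferase of N-glycan assembly, had the highest retained-intron levels among them. The 5′ sites are shown with 3 exon bases in lower case and 6 intron bases in capitals.
E2F4, chr16:67193171-67193471, plus strand: ctgATATCC
ALG3, chr3:184242958-184243553, minus strand: accATATCC
NOP2, chr12:6563515-6563613, minus strand: aggATATCC
The E2F4 transcript had 10.6 and 10.002 TPM in the control libraries and 8.67 and 8.58 TPM with JOA. The ALG3 transcript had 11.4 and 12.4 TPM in control and 7.44 and 8.34 TPM with JOA. Both were lower in each JOA library than in each control library, and neither passed the test described below.

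Small RNA genes lay whole inside exons of some retained-intron transcripts. A snoRNA or scaRNA lay inside 72 transcripts of 36 genes, and a miRNA hairpin inside 46 transcripts of 41 genes. These small RNAs guide the modification of ribosomal and spliceosomal RNA or repress mRNAs, and most are cut from introns of their host. With JOA the median log2 difference was -0.07 for the former, with 26 of 72 higher, and -0.0032 for the latter, with 23 of 46 higher. Among all retained-intron transcripts 57.0% were higher, at a median of 0.06, which became -0.01 without control 2. The values of the 72 and the 46 transcripts are given for the main fit alone.

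The highest retained-intron transcripts belonged to genes of very high expression. PTMA, which encodes the chromatin-associated acidic protein prothymosin alpha, led with PTMA-211 (chr2:231708530-231712675, plus strand). It had 2941 and 3156 TPM in the control libraries and 2290 and 2121 TPM with JOA. The groups did not overlap. RPL13, a protein of the large ribosomal subunit, came next with RPL13-213, which had 2633 and 1497 TPM in control and 2898 and 989 TPM with JOA. Its libraries of the same treatment differed far more than the groups did, and its share of RPL13 ran from 30.03 to 53.4%. RPL4-203 had 1133 and 1002 TPM in control and 1198 and 1076 TPM with JOA, overlapping ranges at 25.4 to 26.5% of RPL4.

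MPO encodes myeloperoxidase, the main enzyme of the primary granules of promyelocytes. MPO-205 (chr17:58278837-58279399, minus strand, 481 bases) had 1004 and 1084 TPM in control and 743 and 657 TPM with JOA. Both JOA libraries lay below both controls, with a log2 difference of -0.58 (SE 0.11). Its share of MPO was 12.6 and 14.1% in control and 12.6 and 14.05% with JOA, so the level of the transcript and of its gene differed alike. For MPO as a gene, the log2 difference was -0.58 (SE 0.14). In bulk RNA such as this, fewer cells of a type and less RNA per cell cannot be told apart.

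RPL14-208 held most of the TPM of RPL14, a protein of the large ribosomal subunit. Its share was 77.1 and 78.1% in control and 81.1 and 79.4% with JOA. NOP53-203, from a ribosome biogenesis factor, held 59.2 and 57.9% in control and 58.5 and 65.0% with JOA, at 777 and 606 TPM against 955 and 903 TPM. ARMH1-206 had 451 and 384 TPM in control and 610 and 576 TPM with JOA, at shares of 65.2 and 63.8% against 69.0 and 70.0%. NOP53-203 and ARMH1-206 were higher in each JOA library than in each control, with log2 differences of 0.44 (SE 0.15) and 0.51 (SE 0.12), and their genes differed by 0.36 and 0.40. The other 5 of the 12 highest were RPL35A-208, RPS23-203, RPS27A-208 and RPS28-201 from ribosomal protein genes and OAZ1-208 from ornithine decarboxylase antizyme, at log2 differences between -0.04 and 0.40. Ribosomal protein genes have many near-identical processed copies in the genome, and their levels depend on how the authors' software assigned shared reads.

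**Figure D2:**
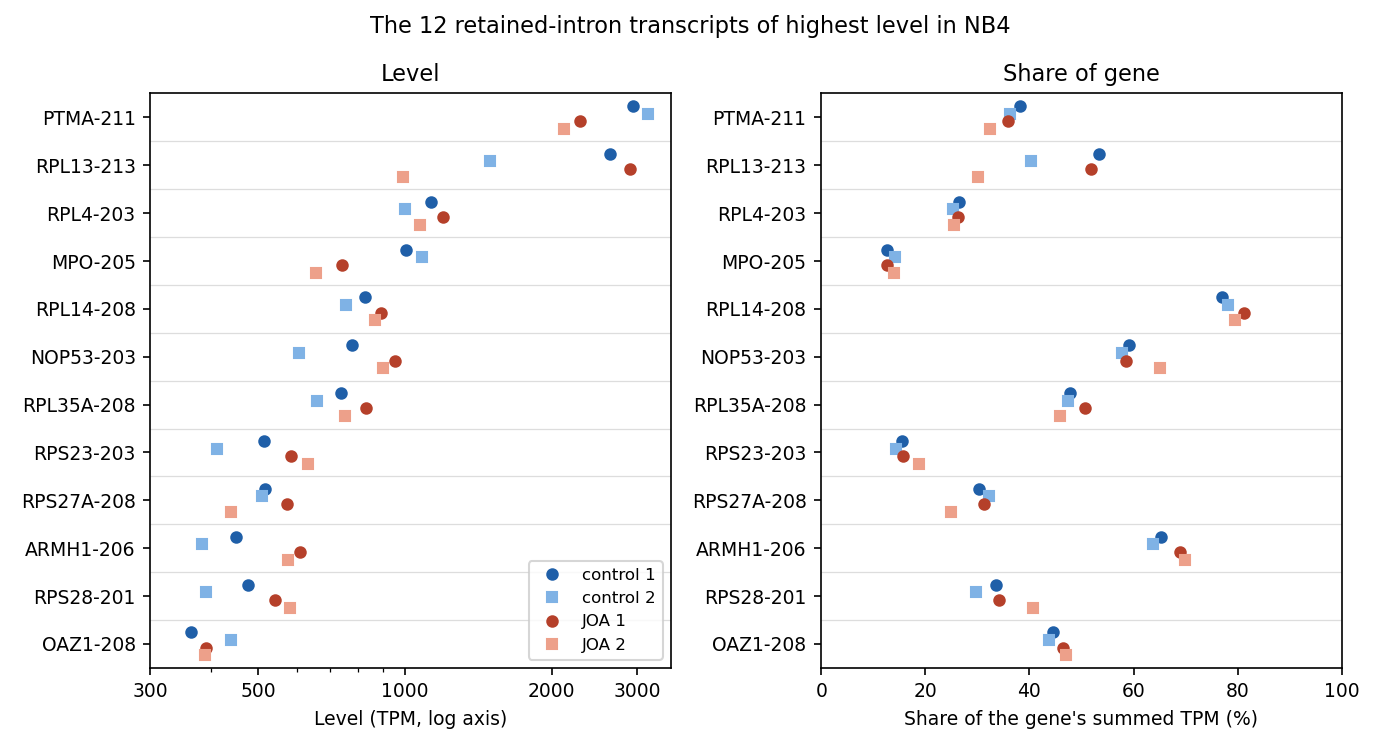
Level in TPM (left, log axis) and share of the summed TPM of the gene in percent (right) of the 12 retained-intron transcripts of highest mean level, 1 symbol per library (blue, control; red, JOA; circles, replicate 1; squares, replicate 2). PTMA-211 and MPO-205 lie lower in both JOA libraries, and RPL13-213 spreads from 989 to 2898 TPM within the JOA group.

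High shares also occurred at lower levels. Among transcripts at 10 TPM or more, RAB21, a small GTPase of endosomes, had 1 that held 72.0 to 83.2% of its gene in the 4 libraries. FAN1, a nuclease of DNA crosslink repair, had 1 at 73.2 to 77.4%, MALSU1, a mitochondrial ribosome assembly factor, 1 at 72.2 to 81.5%, and SLC9A3, a sodium-proton exchanger, 1 at 67.6 to 71.2%. In these 4 genes the shares of the groups overlapped. SHANK1, a scaffold protein, had a transcript at 86.4 and 84.2% in control and 59.8 and 69.1% with JOA, at only 9.05 to 13.9 TPM, and that gene has no spliced coding transcript at 1 TPM.

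Retained-intron transcripts were spread unevenly over genes. Of the 4490 hosts, 1944 had 1 such transcript and 492 had 5 or more. MAN2C1, a cytosolic alpha-mannosidase, had the most, 18, which together held 76.4 and 76.7% of the gene in control and 71.9 and 74.1% with JOA. PAN2, a poly(A) nuclease subunit, had 14 that held 90.2 to 93.1%, and ACADVL, the very long-chain acyl-CoA dehydrogenase, had 17 that held 67.8 to 70.8%. HNRNPH1, a splicing regulator that binds G-rich RNA, had 15 that summed to 546 and 391 TPM in control and 552 and 611 TPM with JOA. Of the 15, 13 had a higher mean with JOA, while their summed share of HNRNPH1 was 55.6 and 50.04% in control and 52.6 and 53.8% with JOA. Transcripts of 1 gene share exons and reads, so they are not independent of each other.

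Summed over all genes, the part of the RNA held by retained-intron transcripts overlapped between the groups. The 10569 transcripts held 8.21 and 7.66% of the TPM in the control libraries and 8.25 and 8.004% with JOA. The difference was 0.188 percentage points, at an exact 2-sided permutation p of 0.667, where 2 against 2 libraries allow no p below 0.333. It turned to -0.085 points without control 2. Mitochondrially encoded transcripts, which held 14.6 and 16.4% in control and 11.2 and 13.1% with JOA, move every other share. Of the non-mitochondrial TPM, retained-intron transcripts held 9.61 and 9.17% in control and 9.29 and 9.21% with JOA, and of the TPM of their own genes 14.9 and 14.3% against 14.4 and 14.4%. On these bases the difference was -0.140 and -0.205 points.

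No single retained-intron transcript passed the test of JOA against control. Levels were fitted with limma on log2(TPM + 1) over all 49187 transcripts at a mean of 1 TPM or more, and p-values were adjusted with the Benjamini-Hochberg method over all of them. At an adjusted p under 0.05, 0 of 10569 passed, against 0% of all transcripts, and the lowest adjusted limma p was 0.254. With 2 libraries a group, this count of 0 does not show that levels did not differ. At an unadjusted p under 0.05 there were 573, or 5.42%, against 6.27% of all transcripts. Of these, 333 were higher with JOA (3.15%, against 3.98% of all transcripts) and 240 lower (2.27%, against 2.29%). With median-ratio scaling the split was 234 higher and 346 lower, and over all transcripts it was 1301 higher and 1567 lower. Both JOA libraries lay outside the range of the controls for 3734 (35.3%), against 37.8% of all transcripts. Both shares lay near those of all transcripts. The median log2 difference was 0.06 for retained-intron transcripts, 0.07 for all transcripts, and -0.01 for both with median-ratio scaling.

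The share of the gene gave no call either. It was fitted with limma as log2(TPM + 1) of the transcript minus log2(TPM + 1) of the rest of its gene, for 10513 retained-intron transcripts among 44397 in all. No transcript passed at an adjusted p under 0.05 (0% of all transcripts), and the lowest adjusted limma p was 0.519. At an unadjusted p under 0.05 there were 400 (3.80%), against 5.0% of all transcripts. Of these, 168 were higher (1.60%, against 2.28% of all transcripts) and 232 lower (2.21%, against 2.73%). Groups did not overlap for 3350 (31.9%), against 33.6%. The median log2 difference of the share was -0.03 for retained-intron transcripts and -0.02 for all transcripts. With 1 library left out, that of retained-intron transcripts ran from -0.06 (without control 2) to -0.01 (without control 1). Over all transcripts it was -0.02 in both of these settings.

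Libraries of 1 treatment differed from each other. The median absolute log2 difference of a retained-intron transcript was 0.318 between the control libraries and 0.294 between the JOA libraries. For coding transcripts of the same genes the values were 0.259 and 0.242. Levels correlated at 0.879 between the controls on the log scale over retained-intron transcripts, and at 0.926 over all transcripts. Control 1 also lay above control 2 by a median of 0.108 for retained-intron transcripts and of 0.037 for coding transcripts of the same genes. The median difference of 0.06 between treatments became -0.01 without control 2.

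Retained-intron transcripts tended to differ with the rest of their gene. The 10277 transcripts whose gene had 5 TPM or more outside the transcript were grouped by the log2 difference of that rest. Where the rest was lower by more than 0.5, the median of 71 transcripts was -0.40, and 22 of 71 were higher with JOA. Where the rest was higher by 0.5 or more, the median of 283 transcripts was 0.35, and 234 of 283 were higher. In between, the medians were -0.11, -0.03, 0.07 and 0.18. Over the 10277 transcripts Pearson's r was 0.23 and Spearman's rho 0.249, as a description across transcripts that share libraries and, within a gene, exons.

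**Figure D3:**
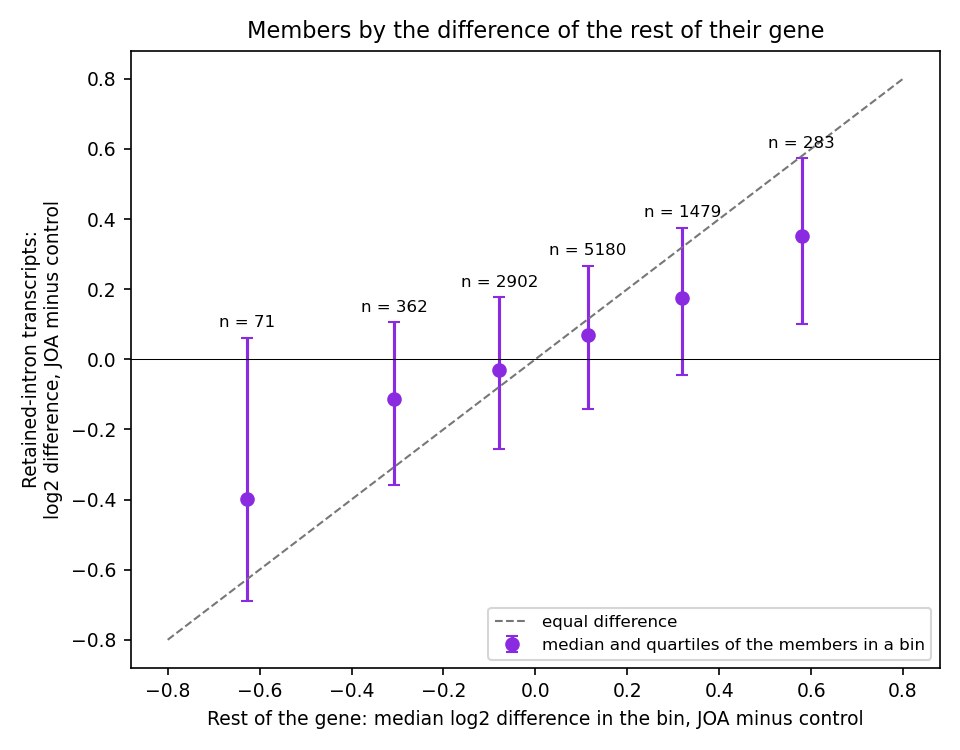
Log2 difference of retained-intron transcripts between JOA and control (vertical axis) by the log2 difference of the rest of their gene (horizontal axis, median of each of 6 bins). Points are medians, bars run from the lower to the upper quartile, n is the number of transcripts, and the dashed line marks equal differences; the medians run from -0.40 to 0.35.

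Gene lists grouped the transcripts by the function of the host. Over all retained-intron transcripts 57.0% were higher with JOA, at a median log2 difference of 0.06. Over all 12794 genes the median was 0.085. Mitosis genes hosted 48 retained-intron transcripts, of which 39 were higher with JOA at a median log2 difference of 0.30, and all 22 host genes were higher at a median of 0.32. Transcripts of ER chaperone genes, which fold secreted proteins, had a median of -0.26, with 23 of 30 lower, and 11 of their 12 host genes were lower at a median of -0.36. DNA replication genes hosted 90, of which 61 were lower at a median of -0.10, with 25 of 29 host genes lower at a median of -0.14. Without control 2 the transcript medians were 0.13 for mitosis, -0.16 for ER chaperones and -0.22 for DNA replication, and without control 1 and without JOA 2 that of ER chaperones was -0.45 and -0.40. Without control 1 the median of the ER chaperone genes was -0.54, and without control 2 it was -0.19. With median-ratio scaling DNA replication transcripts had a median of -0.18 and their genes one of -0.24. None of these transcripts passed at an adjusted limma p under 0.05. As shares of the gene the medians were -0.02, 0.06 and 0.004. The lists were chosen with results of these data known, so their directions are no independent evidence.

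CALR encodes calreticulin, a calcium-binding ER chaperone. CALR-207, which holds intron 4 shown above, had 41.7 and 72.3 TPM in control and 23.7 and 24.1 TPM with JOA. CALR-205, which holds intron 1, had 63.7 and 86.3 TPM in control and 37.7 and 34.3 TPM with JOA. Both had lower levels in each JOA library, with log2 differences of -1.17 (SE 0.27) and -1.02 (SE 0.18), neither called. The CALR gene went from 1947 and 2398 TPM to 1376 and 1197 TPM, a log2 difference of -0.75 (SE 0.13, limma, adjusted p = 0.168). CALR-207 held 2.14 and 3.02% of the gene in control and 1.73 and 2.01% with JOA.

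Primary granule genes had a lower median as genes than as retained-intron transcripts. Their 11 retained-intron transcripts had a median log2 difference of -0.13, with 8 lower, and the 6 host genes a median of -0.64, with 4 lower. Both medians varied with the libraries used, and the gene median was the lower one each time. The transcript and gene medians were -0.11 and -0.56 without control 1, and -0.36 and -0.68 without control 2. They were -0.34 and -0.80 without JOA 1, and -0.20 and -0.48 without JOA 2. With median-ratio scaling they were -0.22 and -0.73. The gap sets a median over transcripts against one over genes. As a share of the gene the transcripts had a median log2 difference of -0.14, with 6 of 11 lower, and of 0.04 without JOA 1. Their summed shares overlapped between groups, at 11.8 and 13.1% in control and 11.9 and 13.3% with JOA. MS4A3, a membrane protein of granulocyte precursors, held both patterns. MS4A3-206 had 43.5 and 38.4 TPM in control and 26.2 and 18.3 TPM with JOA, and the MS4A3 gene differed by -0.69 on the log2 scale. MS4A3-207 had 19.8 and 15.3 TPM in control and 19.0 and 16.5 TPM with JOA, so that its groups overlapped. Its share of the gene was 11.6 and 9.70% in control and 16.8 and 18.1% with JOA, a log2 difference of 0.83 on the share scale (SE 0.25, limma, adjusted p = 0.969).

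In ribosomal protein genes, the medians of transcripts and genes had opposite signs. The 187 retained-intron transcripts had a median log2 difference of -0.09, with 115 lower and 72 higher. Those of highest level mostly went the other way. RPS23-203, RPS28-201, RPL35A-208, RPL14-208 and RPL4-203 had log2 differences of 0.40, 0.38, 0.18, 0.15 and 0.09. RPL13-213 and RPS27A-208 had -0.23 and -0.03. Of the 64 host genes 55 were higher, at a median of 0.13, against 0.085 over all 12794 genes. With median-ratio scaling the transcript median was -0.17 and that of the genes 0.04, with 42 of 64 higher. Without control 2 the medians were -0.03 and 0.08, and without control 1 they were -0.16 and 0.19. Without JOA 2 the transcript median was -0.05. As a share of the gene 155 of 187 were lower, at a median of -0.21, against -0.02 over all transcripts. Of the 187, 8 had an unadjusted level p under 0.05 (4.28%, against 6.27% of all transcripts) and 4 an unadjusted share p under 0.05 (2.14%, against 5.0%), and 0 passed the adjusted test. Leaving out 1 library at a time, the median share difference ran from -0.34 (without control 1) to -0.11 (without control 2), and with median-ratio scaling it was -0.19. The summed retained-intron share of these genes was 6.99 and 6.27% in control and 6.88 and 5.60% with JOA, and these ranges overlapped.

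**Figure D4:**
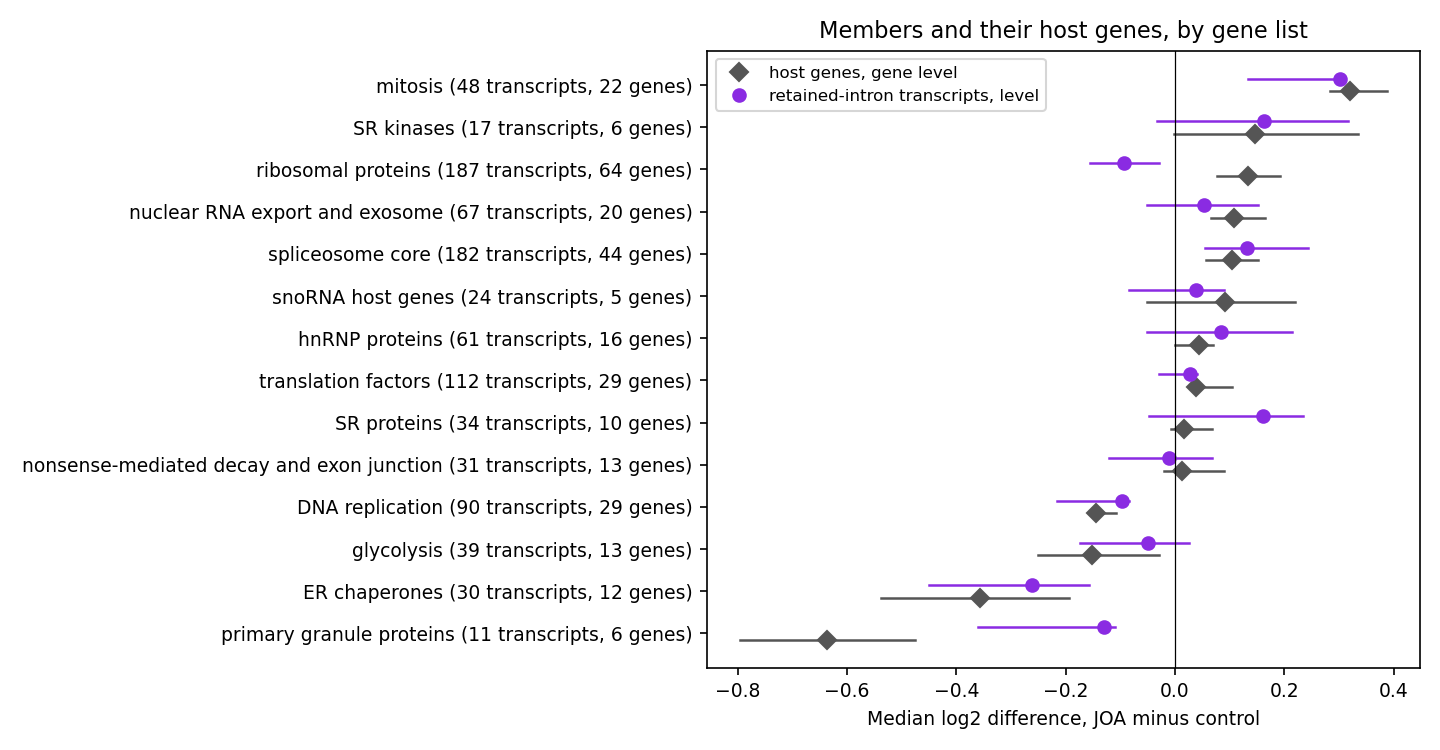
Median log2 difference between JOA and control (horizontal axis) of retained-intron transcripts (circles) and of their host genes (diamonds) in 14 gene lists, with lines from the lowest to the highest median when 1 library is left out. The symbols lie close together for mitosis genes, at 0.30 and 0.32, and on opposite sides of 0 for ribosomal protein genes, at -0.09 and 0.13.

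Among the highest retained-intron transcripts of splicing factor genes, some differed widely between libraries of 1 treatment and others little. SRSF5, an SR protein, had SRSF5-212 at 78.8 and 31.1 TPM in control and 75.3 and 51.6 TPM with JOA. CLK1-210, which holds introns 3 and 4 of the kinase CLK1, had 18.3 and 4.60 TPM in control and 17.0 and 6.75 TPM with JOA, or 20.7 and 8.20% of CLK1 against 18.2 and 7.74%. In both, replicate 1 was the higher library of each treatment, and the groups overlapped. HNRNPA1-212, from an hnRNP protein, had 141 and 140.2 TPM in control and 144 and 154 TPM with JOA, without overlap. SF3B3-206, from a U2 snRNP subunit, had 84.4 and 94.2 TPM in control and 84.7 and 93.6 TPM with JOA, and SNRNP200-208, from a helicase of the U5 snRNP, had 64.6 and 73.2 TPM against 66.6 and 67.1 TPM. The ranges of SF3B3-206 and SNRNP200-208 overlapped between groups. SF1-217, from the factor that binds the branch point, had 78.4 and 73.6 TPM in control and 97.8 and 97.1 TPM with JOA, without overlap (log2 difference 0.35, SE 0.11). Outside the splicing lists, EEF1A1-206, from a translation elongation factor, had 283 and 63.8 TPM in control and 245 and 308 TPM with JOA, so that control 2 stood apart from the other libraries.

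Of all retained-intron transcripts 57.0% were higher with JOA, at a median log2 difference of 0.06. Of 34 retained-intron transcripts of SR protein genes 23 were higher (median 0.16). Of 182 of spliceosome core genes 122 were higher (0.13), and of 61 of hnRNP genes 40 were higher (0.08). With median-ratio scaling these medians were 0.08, 0.06 and -0.002. Those of nonsense-mediated decay and exon junction genes numbered 31, with 15 higher and a median of -0.01, and those of nuclear RNA export and exosome genes 67, with 40 higher and a median of 0.05 (-0.02 with median-ratio scaling). Without control 2 the medians of SR protein, hnRNP and export transcripts were -0.05, -0.05 and -0.02, and that of spliceosome core transcripts was 0.05. Without control 1 the spliceosome core and hnRNP medians were 0.24 and 0.21, and without JOA 1 the SR protein median was 0.07. Without JOA 2 the median of export transcripts was -0.05, and that of nonsense-mediated decay transcripts was 0.02 without JOA 2, 0.07 without control 1 and -0.12 without control 2. Of 17 transcripts of SR kinase genes 12 were higher (median 0.16), with medians of -0.03 without control 2 and -0.03 without JOA 1. Their summed shares overlapped between groups for SR proteins, at 19.2 and 15.8% in control and 19.3 and 18.4% with JOA. They did not overlap for nonsense-mediated decay genes, where they were lower with JOA, at 22.4 and 21.9% in control and 20.8 and 19.9% with JOA. They did not overlap for spliceosome core genes either, where they were higher with JOA, at 26.2 and 23.8% in control and 27.2 and 26.7% with JOA. For SR kinase, hnRNP and export genes the summed shares overlapped. Among all transcripts, 33.6% had shares without overlap. The median share difference of spliceosome core transcripts was 0.03, and -0.0009 without control 2. That of nonsense-mediated decay transcripts was -0.07, and 0.0026 without control 1. These summed shares were not tested.

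Genes of splicing, RNA surveillance and export were also compared as summed gene levels. Of 166 tested, 0 passed at an adjusted limma p under 0.05, against 0.00782% of all 12794 genes. At an unadjusted p under 0.05 there were 11 (6.63%), against 10.6% of all genes. SF3B1, a subunit of the U2 snRNP, had 243 and 225 TPM in control and 284 and 324 TPM with JOA. Its log2 difference of 0.37 (SE 0.11) had an adjusted limma p of 0.314. SRSF5 had 329 and 269 TPM in control and 378 and 369 TPM with JOA (log2 difference 0.33, SE 0.12). ALYREF, an mRNA export adaptor, had 216 and 238 TPM in control and 191 and 181 TPM with JOA (log2 difference -0.29, SE 0.10). These 3 genes did not overlap between groups, and none passed. The other 9 genes of lowest p in their lists, TRA2A, CLK1, CLK2, HNRNPH1, HNRNPH2, LUC7L3, UPF2, UPF3B and THOC2, had log2 differences from 0.24 to 0.39.

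In the remaining lists the sign of the median changed with the setting. Translation factor genes hosted 112, with 60 higher and a median of 0.03 (-0.05 with median-ratio scaling and -0.03 without JOA 1). The snoRNA host genes held 24, with 14 higher and a median of 0.04 (-0.05 with median-ratio scaling and -0.08 without control 2). Glycolysis genes hosted 39, with 23 lower and a median of -0.05 (0.03 without JOA 1, -0.17 without JOA 2, -0.12 without control 1 and -0.14 with median-ratio scaling). TPT1-205, from the snoRNA host that encodes translationally controlled tumour protein, had 155 and 129 TPM in control and 185 and 207 TPM with JOA. It held 4.31 and 4.53% of TPT1 in control and 4.39 and 4.69% with JOA, and the gene went from 3595 and 2851 TPM to 4205 and 4416 TPM. NCL-208, which holds intron 3 of nucleolin shown above, had 51.6 and 47.8 TPM in control and 44.1 and 50.2 TPM with JOA, with overlap.

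The largest differences of single retained-intron transcripts were in low transcripts, often with a library at 0. The 10 highest and 10 lowest log2 differences were taken among transcripts without overlap between groups and with a mean of 5 TPM or more in the higher group. The values themselves chose these 20, so they are a description. Of the 20, 17 had a mean under 10 TPM and 11 were listed at exactly 0 in a library, against 3.78% of all retained-intron transcripts.

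NPIPB5-206 (chr16:22531492-22533812, plus strand) showed the largest difference. It is a transcript of a gene family of near-identical copies on chromosome 16, and it had 0.0020 and 0.0049 TPM in control and 15.2 and 15.3 TPM with JOA (log2 difference 4.02, SE 0.22), so that it reached the minimum through the JOA libraries alone. NPIPB4-221 (chr16:21837564-21839878, minus strand), of the same family, had 19.5 and 15.2 TPM in control and 5.29 and 0.593 TPM with JOA (log2 difference -2.52, SE 0.66). Of all 31-base words of NPIPB5-206, 99.3% also occur in NPIPB4-221, and of those of NPIPB4-221, 100% occur in NPIPB5-206. The sum of both transcripts was 19.5 and 15.2 TPM in control and 20.5 and 15.9 TPM with JOA. The sum thus overlapped between groups, while each transcript alone did not. This pair was compared after its values were seen.

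THYN1-208, from a nuclear thymocyte protein, had 9.40 and 7.11 TPM in control and 1.13 and 0.0011 TPM with JOA, and its share of THYN1 was 9.94 and 7.42% against 1.26 and 0.0013%. Its log2 difference was -2.65 (SE 0.43, limma, adjusted p = 0.785). The THYN1 gene itself differed by -0.07. SNF8-208, from an ESCRT-II subunit, had 12.7 and 28.7 TPM in control and 5.83 and 2.38 TPM with JOA. STARD7-206, which holds the 81-base intron 4 of a lipid transfer protein, had 8.84 and 3.33 TPM in control and 1.85 and 0 TPM with JOA. ARL6IP4-213 had 9.32 and 7.44 TPM in control and 4.30 and 3.95e-05 TPM with JOA. Also among the 10 lowest were transcripts of SHKBP1, TMEM175, MAP2K7, THUMPD3 and NT5C3B, with log2 differences between -2.31 and -1.70.

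HSPD1-213, from the mitochondrial chaperonin HSP60, had 8.57 and 4.49 TPM in control and 16.8 and 47.3 TPM with JOA, or 0.869 and 0.430% of HSPD1 against 1.82 and 4.30%. Its log2 difference was 2.02 (SE 0.54, limma, adjusted p = 0.785), and the HSPD1 gene differed by -0.01. RSL1D1-211, from a nucleolar protein, had 4.88 and 1.58 TPM in control and 11.3 and 20.5 TPM with JOA. TRA2A-205, from an SR-like splicing factor, had 3.81 and 0 TPM in control and 6.59 and 20.6 TPM with JOA. The other 6 of the 10 highest belonged to TBXAS1, PRMT5, PTPN9, HDDC2, SF3A1 and LAT, with log2 differences between 1.93 and 2.18. Ranked by the share of the gene, the 6 largest differences upwards without overlap came from NPIPB5, HDDC2, TRA2A, PRMT5, HSPD1 and GINS4, a subunit of the GINS replication complex. The GINS4 transcript held 42.4 and 0% in control and 45.1 and 42.7% with JOA. PRMT5-208, TPT1-205, RPS23-203 and SNF8-208 overlap a gene on the other strand, and ARL6IP4-213 and LAT-215 another gene on their own strand. Whether the counting used strand is not given in the sources used here.

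**Figure D5:**
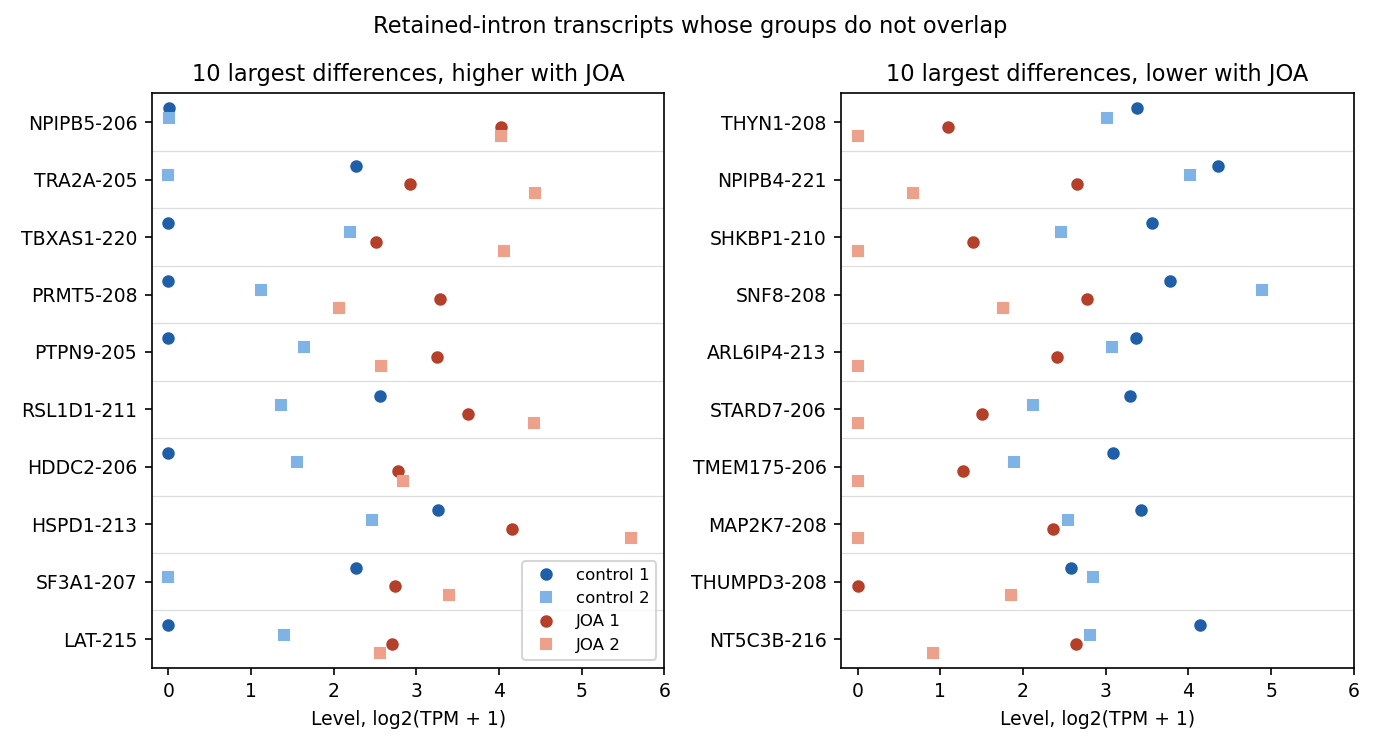
Level as log2(TPM + 1) (horizontal axis) in each library (blue, control; red, JOA; circles, replicate 1; squares, replicate 2) for the 10 retained-intron transcripts with the largest differences upwards (left) and downwards (right) among those whose groups do not overlap. NPIPB5-206 is near 0 in both controls, and 11 of the 20 transcripts are at exactly 0 in a library.

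Markers were fixed for a check of the cell type, and 5 of 6 myeloid markers were at 1 TPM or more. Their summed level was 8707 and 8568 TPM in control and 6373 and 5008 TPM with JOA, and ELANE was below 1 TPM on average. MPO itself made up most of this sum, at 7983 TPM in control 1, and without MPO the sum was 724 and 875 TPM in control and 487 and 329 TPM with JOA. CD33 went the other way, at 58.4 and 49.8 TPM in control and 72.2 and 75.4 TPM with JOA. Erythroid markers summed to at most 0.637 TPM. Of the T cell markers only CD3D, at 26.1 to 47.3 TPM, and of the epithelial and fibroblast markers only EPCAM, at 10.2 to 15.99 TPM, reached 1 TPM, and KRT19 was at 0 in all 4 libraries. B cell markers summed to 19.6 to 24.96 TPM. The lower sum without MPO stands beside the lower MPO-205 and MS4A3-206, and its part in them was not tested.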

How the data were processed

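RNA from 4 NB4 libraries was measured by sequencing. Per the labels' protocols, Trizol was used for total RNA and a TruSeq kit for stranded mRNA libraries. Among tools, HISAT2, HTSeq, Cufflinks and Trimmomatic stand in the submitters' processing notes, beside hg38, without version or role. How reads were assigned to transcripts, and the annotation release, are not given in the sources used here. The authors deposited the NB4 table under a name that says FPKM, but its columns sum to between 999679 and 999758, so the deposited values were taken as TPM. TPM keeps no depth, so the depth is unknown and no counting interval was computed. The Kasumi-1 table of the series was not used here.

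Transcripts were matched by identifier to GENCODE 29, which gave the biotype, coordinates (GRCh38) and sequence. A share is the TPM of a transcript in percent of the summed TPM of the matched transcripts of its gene. Fits used limma 3.58.1 (R 4.3.3) with a variance trend on log2(TPM + 1), which understates differences at low level, at a mean of 1 TPM or more, and were tested on simulated data. Tables were made with Python 3.11.15. Transcripts named are the 12 of highest level, the 10 largest differences per direction and 6 per direction for shares (groups not overlapping, higher mean at least 5 TPM), up to 3 of highest level per list of host genes, 2 genes of lowest p per splicing list, and those nearest the minimum. Members and lists were chosen with earlier results of these data known. No label pairs control and JOA libraries by number, and the main fits did not pair them. Libraries with 1 number deviated from their groups with a correlation of 0.0816. This value cannot show whether they were handled together. Alternatives varied the pseudocount, the filter, the scaling, the variance trend, the block and the libraries. 1 named item is not reported here.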

Additional observations from a re-analysis of the deposited data

How the results depend on the processing

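The count of 0 retained-intron transcripts at an adjusted limma p under 0.05 held for level and share under each alternative run: a pseudocount of 0.1 TPM, 2 other filters, median-ratio scaling, no variance trend, the replicate block and each library left out. With 1 library left out, the median log2 level difference ran from -0.01 (without control 2) to 0.10 (without control 1). Over all transcripts it was 0.03 and 0.10 in these settings. Among retained-intron transcripts at 5 TPM or more, 253 for level and 76 for share had an unadjusted p under 0.05. Fewer transcripts were tested there, and no count over all transcripts is given for them. With the retained-intron transcripts of a gene summed, 156 had an unadjusted share p under 0.05. Over all rows of that fit there were 1929 of 38307. Of the retained-intron transcripts 59.7% had a higher level without control 1, 48.9% without control 2, 56.6% without JOA 1 and 56.0% without JOA 2. Of all transcripts these were 60.1, 53.8, 58.1 and 59.3%. With the replicate block, which treats same-numbered libraries as pairs, the unadjusted counts were 615 of 10569 for level and 416 of 10513 for share. Over all transcripts they were 3173 of 49187 and 2478 of 44397. The numbers share no label of pairing. For the splicing and surveillance genes the unadjusted count was 5 with median-ratio scaling, 2 without the variance trend and from 0 (without JOA 2) to 19 (without control 1) with 1 library left out, 2 without control 2; the cause was not tested. The difference of the summed share was -0.140 of the non-mitochondrial TPM and -0.205 of the TPM of the hosts, and ran from -0.085 to 0.462 with 1 library left out. Among named transcripts RPL4-203 turned to -0.0023 with median-ratio scaling. With 1 library left out RPL13-213 ran from -1.01 to 0.55, RPS27A-208 from -0.22 to 0.16 and OAZ1-208 from -0.18 to 0.10. The depth is unknown, and on simulated data the transcript fits left most changes of the smaller sizes tried uncalled. These changes were placed only in transcripts at 5 TPM or more, while the median level of the retained-intron transcripts was 3.15 TPM.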
